A study of Bos taurus with 12 samples.

Results

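The zinc finger genes named ZNF and a number were followed through PGF2α-induced regression of the bovine corpus luteum. Members were all genes of the deposited tables whose symbol is ZNF followed by digits and that had at least 10 rounded counts in at least 4 of the 12 libraries. The tables hold 273 such rows, of which 257 passed this minimum and 16 did not. The 257 members carry 254 distinct symbols, because 3 symbols have 2 rows each. They were part of 14481 genes tested among 27270 in the tables. The rule used the name and the count minimum only, and no change after PGF2α. Of the members, 237 had at least 10 counts in all 12 libraries, and 0 reached the minimum through libraries of 1 group alone.

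ZNF is a naming root for proteins with zinc fingers, most of them of the C2H2 type, in which a short loop folded around a zinc ion reads a few bases of DNA. Many carry a KRAB domain, which recruits the corepressor TRIM28 and, through it, the histone methyltransferase SETDB1 and heterochromatin proteins, and these KRAB zinc finger proteins are best known for silencing transposable elements and imprinted genes. Others have no KRAB domain and act as ordinary transcription factors, as parts of chromatin complexes, or on RNA and the ribosome. Little is generally known of most of them in the corpus luteum, the progesterone-producing gland that PGF2α brings to regression.

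Corpora lutea were taken at day 10 of the luteal phase from 12 cows of mixed breed and sequenced as whole tissue. Each cow gave 1 library and counts as 1 replicate (n = 4 in each group). Control cows (cow4285, cow6464, cow7367 and cow7514) received saline. Cow4291, cow5341, cow6455 and cow6456 received a luteolytic dose of PGF2α into the muscle and gave up their ovaries 4 h later, and cow5266, cow6314, cow7382 and cow7475 did so 12 h later. All groups share the synchronised cycle and the ovariectomy, the tissue is a mixture of cell types, and 1 saline group served as control for both times.

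Libraries held 10263310 to 22600213 expected counts, the estimate of reads per gene that the authors deposited. Transcripts averaged 1379 ± 69.7 bases at 12 h and 1583 ± 41.9 bases in controls when each was weighted by its TPM (SD, n = 4 each). Cow6314 of the 12 h group stood nearest to the controls, with 1478 bases, and cow6455 had the shortest mean of the 4 h group, 1523 bases. Mitochondrial genes held 11.6 ± 3.04% of counts at 12 h, with 7.22% in cow6314 and up to 14.1% in the others, against 8.94 ± 1.51% in controls and 8.93 ± 1.01% at 4 h. Of 6 markers of luteal steroidogenic cells 5 fell at 12 h, and their summed level was 6716 to 16088 CPM against 26040 to 40476 in controls. Of 7 macrophage markers 6 rose at 12 h (262 to 369 CPM summed, against 91.7 to 224 in controls), as did 4 of 5 neutrophil markers. In whole tissue, fewer cells of a type and less RNA per cell cannot be told apart. Fibroblast markers (2 of 5), pericyte markers (1 of 5), endothelial markers (1 of 7, with 1 that fell) and the erythrocyte marker that could be tested also rose at 12 h, and 2 of 4 granulosa and theca markers fell. Of all tested genes 23.6% rose and 25.3% fell at 12 h, and 8.65% rose and 5.59% fell at 4 h. The pericyte and endothelial counts at 12 h lie at or under those shares. The rises of fibroblast, pericyte and endothelial markers passed neither on log2(TPM + 1) nor without cow6455 and cow6314. At 4 h the steroidogenic markers HSD3B1 and PTGFR fell (2 of 6), as did FOXL2 and CYP19A1 of granulosa and theca (2 of 4). Of 7 endothelial markers KDR and EMCN fell and PECAM1 and TEK rose. CD14 of macrophages (1 of 7), S100A9 of neutrophils (1 of 5) and PDGFRB of pericytes (1 of 5) also rose at 4 h. The median log2 fold changes of these lists at 4 h were -0.11 for macrophages, 0.59 for neutrophils and 0.52 for pericytes. The part of these cells, of mitochondrial RNA and of transcript length as causes of the ZNF results was not tested. Alternative fits without mitochondrial genes and with an offset for transcript length describe only how the calls depend on these choices. TPM values are levels per length of transcript, and log2 fold changes come from counts scaled by the TMM method and tested by edgeR, with adjusted p values over all tested genes.

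The ZNF genes were, as a group, low but present in the control corpus luteum. The median member had 6.40 TPM, 76 had at least 10 TPM, and 5 had under 1 TPM. The most abundant was ZNF706, a very small protein with a single zinc finger, at 84.4 ± 10.4 TPM (SD, n = 4). ZNF207, a microtubule-binding protein of the mitotic spindle, had 81.1 ± 3.0 TPM. These levels differed by less than the spread between control cows. ZNF771 (60.6 ± 6.14 TPM), ZNF358 (51.5 ± 18.5 TPM), ZNF638 (49.0 ± 3.80 TPM) and ZNF428 (47.7 ± 11.4 TPM) followed, with overlapping ranges from ZNF358 down. ZNF638 is a nuclear matrix protein with a known role in silencing foreign DNA.

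Of these abundant genes, 5 passed the test in at least 1 comparison. Of all tested genes 14.2% passed at 4 h, 48.9% at 12 h and 46.7% between the times, and 108 of the 257 members passed in no comparison. ZNF706 was at 81.6, 99.5, 75.7 and 80.9 TPM in the control cows, 103, 114, 122 and 108 TPM at 4 h, and 107, 119, 117 and 113 TPM at 12 h. Every treated cow lay above every control cow in TPM. The log2 fold change was 0.43 at 4 h (adjusted p = 0.0259, SE 0.11) and 0.73 at 12 h (adjusted p = 0.00027, SE 0.11). The 4 h call of ZNF706 was lost under 7 of 22 alternatives (adjusted p from 0.053 to 0.077), and its 12 h call was kept under all 22. ZNF771 fell at 4 h, from 54.5 to 67.3 TPM in controls to 35.1 to 48.9 TPM, with a log2 fold change of -0.47 (adjusted p = 0.0277, SE 0.13), and at 12 h it was 43.4 to 62.6 TPM, overlapping both. The 4 h call of ZNF771 was lost under 6 of 22 alternatives (adjusted p from 0.051 to 0.088). ZNF207 did not pass against control at either time, but fell between 4 h and 12 h by 0.44 on the log2 scale (adjusted p = 0.0036). ZNF638 fell at 12 h by 0.31 on the log2 scale (adjusted p = 0.0433), although its groups overlapped in CPM (they did not in TPM). Its 12 h call was lost under 11 of 22 alternatives (adjusted p from 0.064 to 0.81). One of these, a correction for transcript length, turned the direction. The sixth, ZNF428, passed in no comparison.

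Together the ZNF genes did not move one way. At 4 h, 15 of 257 rose (5.84%) and 15 fell (5.84%), where 8.65% of all tested genes rose and 5.59% fell. At 12 h, 47 rose (18.3%) and 66 fell (25.7%), where 23.6% of all genes rose and 25.3% fell. Between 4 h and 12 h, 52 rose (20.2%) and 65 fell (25.3%), where 22.5% of all genes rose and 24.3% fell. The shares of ZNF genes that fell were thus close to those of all genes, and the shares that rose were lower. Their median log2 fold changes were -0.01, -0.04 and 0.03 in the 3 comparisons, and those of all genes were -0.03, 0.01 and 0.02. Leaving out cow6455 and cow6314 together gave 31 calls at 4 h, 116 at 12 h and 116 between the times. On log2(TPM + 1) the split at 12 h was 18 that rose and 107 that fell, and with an offset for transcript length 11 rose and 21 fell at 4 h and 62 rose and 51 fell between the times. The comparisons share cows, since both times were set against the same controls. All 4 cows of one group lay apart from all 4 of the other in CPM for 52 members at 4 h (20.2%), 118 at 12 h (45.9%) and 107 between the times (41.6%), beside 19.7%, 44.0% and 41.8% of all tested genes.

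The other genes of like length and abundance were those between the 10th and 90th percentile of the members in effective length (1202 to 4334 bases) and in mean CPM (1.71 to 27.9), 4745 genes in all. Of these, 7.99% rose and 7.73% fell at 4 h, 20.5% rose and 27.8% fell at 12 h, and 21.6% rose and 25.2% fell between the times. The ZNF shares were lower in both directions at 4 h (5.84% rose and 5.84% fell). At 12 h they were only slightly lower (18.3% and 25.7%). Between the times they were close to those of the like genes (20.2% and 25.3%). ZNF calls at 4 h ranged from 13 to 41 over the alternatives, so these gaps are not read as a trait of the family. The ZNF genes lay farther below in the size of their changes. The median size of a ZNF log2 fold change, whatever its sign, was 0.19 at 4 h, 0.35 at 12 h and 0.39 between the times, against 0.28, 0.50 and 0.49 in the genes of like length and abundance. Changes of at least 2-fold that passed the test were seen at 4 h in 4 ZNF genes that rose (1.56%) and 0 that fell, where 4.20% of all genes and 4.99% of the like genes rose, and 1.23% and 1.73% fell. At 12 h they were seen in 7 ZNF genes that rose (2.72%) and 22 that fell (8.56%), where 7.57% of all genes and 7.92% of the like genes rose, and 11.0% and 14.3% fell. The spread between cows was also small, with a median biological coefficient of variation of 0.165 in ZNF genes and 0.199 in the like genes. These differences between gene sets are descriptions, with no test.

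**Figure D1:**
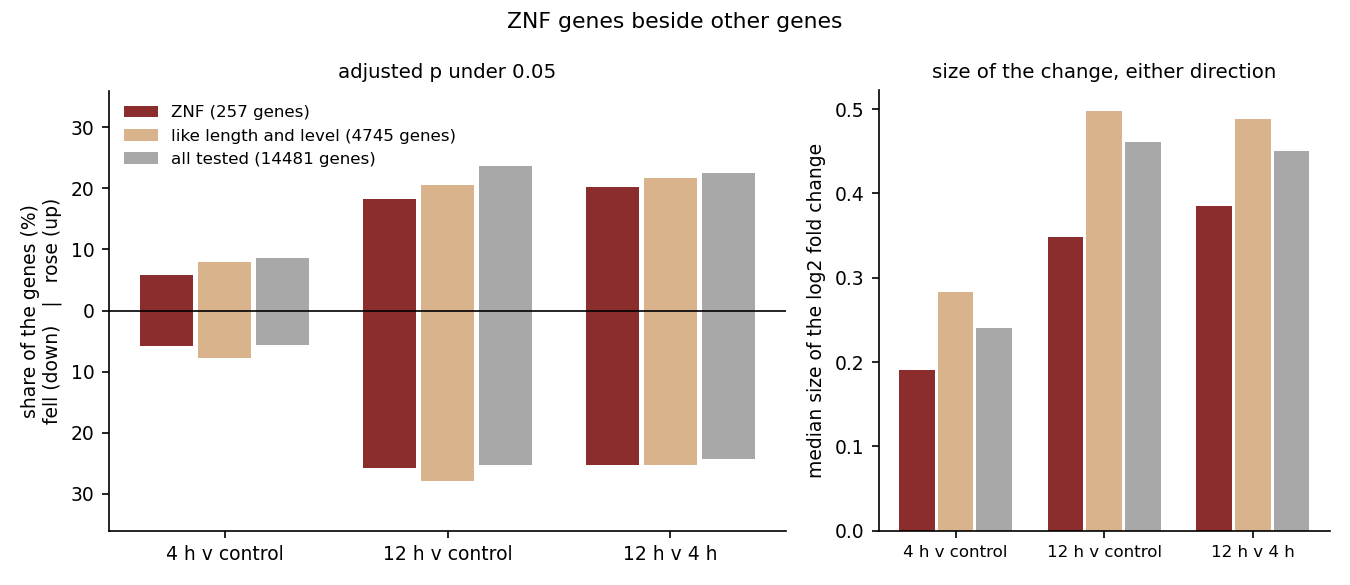
Left, share of genes in percent that rose (upward bars) or fell (downward bars) with an adjusted p under 0.05, for the 257 ZNF genes, 4745 other genes of like length and abundance and all 14481 tested genes, in each of the 3 comparisons. Right, median size of the log2 fold change in the same sets. The ZNF bars on the right are the lowest of each comparison, at 0.19, 0.35 and 0.39.

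More ZNF genes fell than rose by at least 2-fold at 12 h, and ZNF750 fell the most. ZNF750 is a transcription factor known for driving the terminal differentiation of epidermal cells. It was measured at 2.61, 2.36, 2.16 and 1.90 TPM in the control cows, 1.08, 1.04, 0.55 and 2.04 TPM at 4 h, and 0.18, 0.11, 0.07 and 0.03 TPM at 12 h. The 12 h cows lay below all others, whereas the 4 h cows overlapped the controls through cow6456. The counts behind these values were 60 to 114 in controls and only 8, 5, 3 and 1 at 12 h. Its log2 fold change at 12 h was -4.11 (adjusted p = 3e-05, SE 0.45), and at 4 h it was -0.92 (adjusted p = 0.106, SE 0.36). ZNF750 lies on chromosome 19 from 49854334 to 49863765 of ARS-UCD1.2, inside the bounds of TBCD, the tubulin folding cofactor D gene. TBCD had a median of 1254 counts against 52.5 for ZNF750, and itself fell at 12 h by 0.91 on the log2 scale (adjusted p = 0.00014), so reads of the pair may not be cleanly separated where counting ignored strand.

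ZNF609 and ZNF618 took a like course, level with the controls at 4 h and low at 12 h. ZNF609, which in mouse neurons partners the cohesin loader NIPBL and the Integrator complex, had 15.05, 12.75, 16.30 and 15.58 TPM in controls and 13.90, 22.27, 8.19 and 12.89 TPM at 4 h. At 12 h it had 2.19, 2.89, 2.62 and 2.55 TPM. The 4 h values straddled the controls, with the extremes in cow5341 and cow6455, and the 12 h values were tightly grouped well below them. The log2 fold change was -2.24 at 12 h (adjusted p = 2.1e-05, SE 0.23) and -0.03 at 4 h (adjusted p = 0.94, SE 0.22). The row spans 45385273 to 45582446 of chromosome 10 and overlaps TRIP4, which had like counts and did not pass at 12 h (log2 fold change -0.07, adjusted p = 0.59). ZNF618, a partner of the methylcytosine reader UHRF2, had 2.16 to 4.68 TPM in controls, 1.92 to 4.62 TPM at 4 h and 0.44 to 0.72 TPM at 12 h. At 12 h its log2 fold change was -2.15 (adjusted p = 0.00027, SE 0.33).

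The remaining large falls at 12 h included 2 regulators with better known targets. ZNF512B, described as a repressor of TGF-β signalling, had 11.90, 9.69, 12.72 and 11.46 TPM in controls, 10.17, 8.64, 7.29 and 9.09 TPM at 4 h and 1.95, 4.20, 2.39 and 2.22 TPM at 12 h. All 12 h cows lay below all others, and the highest of them was cow6314. Its log2 fold change was -1.81 (adjusted p = 1.2e-05, SE 0.17). ZNF24, a SCAN domain factor reported to repress VEGF transcription in human cells, was the most abundant of the genes that fell this far. It had 33.46, 32.64, 32.11 and 37.74 TPM in controls, 36.47, 45.58, 22.45 and 33.57 TPM at 4 h and 6.60, 12.85, 10.45 and 8.19 TPM at 12 h. Again the 4 h cows straddled the controls and the 12 h cows lay apart (log2 fold change -1.54 at 12 h, adjusted p = 4.9e-05, SE 0.19). Its chromosome 24 locus, 21710349 to 21716048, overlaps no other annotated row.

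ZNF805, ZNF660, ZNF365 and ZNF697 completed the 8 largest falls among genes with at least 1 CPM and no overlap between control and 12 h cows, with log2 fold changes of -1.85, -1.65, -1.57 and -1.56 and 12 h ranges of 0.37 to 1.10, 1.37 to 2.72, 0.84 to 2.36 and 0.97 to 2.16 TPM. Their control ranges were 2.36 to 3.35, 6.25 to 10.11, 4.43 to 5.49 and 4.08 to 7.94 TPM, so that the groups were apart in TPM as well. ZNF81, ZNF446 and ZNF75A had fitted falls of 2.06, 2.04 and 1.65 but stood below 1 CPM or overlapped the controls. ZNF365 is known for a role at the centrosome and in genome stability. The row named ZNF660 carries the full name of a neighbouring gene with KRAB and SCAN domains in the tables, and counts of ZNF805 were not all whole, which means that RSEM shared reads between it and other rows. The 66 genes that fell ranged from -4.11 to -0.30 in log2 fold change.

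**Figure D2:**
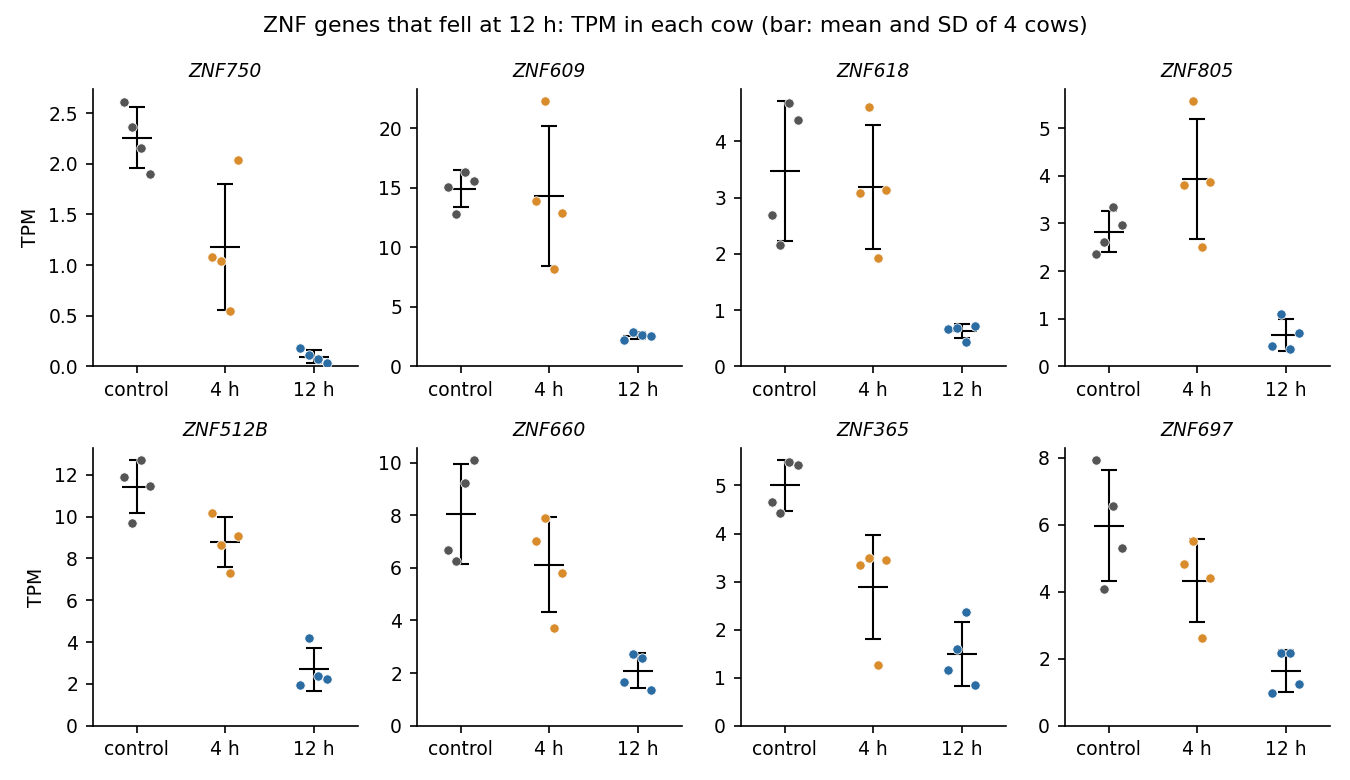
TPM (vertical axes, from 0) of the 8 ZNF genes with the largest falls at 12 h among those with at least 1 CPM and no overlap in CPM, in control, 4 h and 12 h cows. Points are cows, and the bar with its whiskers is the mean and SD of 4 cows. In every panel the 12 h cows lie below all control cows, while the 4 h cows overlap the controls in panels that include ZNF750, ZNF609, ZNF618 and ZNF512B.

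The rises at 12 h were smaller, and ZNF444 was among those that kept their call in every alternative at both times. ZNF444 is a SCAN domain factor first described as binding the promoter of SCARF1, a scavenger receptor of human endothelial cells. It had 16.36, 15.86, 11.41 and 13.26 TPM in controls, 23.06, 24.85, 24.34 and 21.38 TPM at 4 h and 26.11, 24.01, 22.97 and 27.92 TPM at 12 h. All treated cows lay above all control cows, and the treated groups overlapped each other. The log2 fold change was 0.76 at 4 h (adjusted p = 0.0037, SE 0.14) and 1.15 at 12 h (adjusted p = 4.9e-05, SE 0.14). ZNF444 lies on chromosome 18 from 63526743 to 63535355.

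ZNF185 and ZNF358 had the largest fitted rises and were the most uneven between cows. ZNF185 encodes a LIM domain protein that binds the actin cytoskeleton, not a DNA-reading finger protein. Its level was 0.26, 0.34, 0.17 and 0.39 TPM in controls, 1.16, 2.33, 1.10 and 4.44 TPM at 4 h and 0.70, 0.92, 0.58 and 1.25 TPM at 12 h. No treated cow overlapped the controls, but the controls held only 3 to 11 counts each. Its log2 fold change was 2.94 at 4 h (adjusted p = 0.0026, SE 0.51) and 1.8 at 12 h (adjusted p = 0.0124, SE 0.52), and the difference between the times did not pass (-1.14, adjusted p = 0.055, SE 0.45). ZNF358 had 41.00, 45.24, 40.75 and 79.11 TPM in controls, 91.03, 153.38, 145.70 and 62.31 TPM at 4 h and 118.44, 101.88, 83.15 and 114.77 TPM at 12 h. Control cow7514 reached into the 4 h range but below all 12 h cows. The log2 fold change was 1.18 at 4 h (adjusted p = 0.0228, SE 0.30) and 1.34 at 12 h (adjusted p = 0.0031, SE 0.31), and its counts were not all whole. The 4 h call of ZNF358 was lost under 6 of 22 alternatives (adjusted p from 0.053 to 0.067).

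A further set rose at 12 h from a 4 h level no higher than the controls. ZNF613 had 6.76, 8.80, 6.77 and 6.62 TPM in controls, 6.55, 5.46, 8.44 and 6.57 TPM at 4 h and 14.49, 17.58, 8.92 and 11.16 TPM at 12 h. ZNF300, a KRAB zinc finger gene, had 1.46 to 1.78 TPM in controls, 1.0 to 1.44 TPM at 4 h and 2.05 to 3.57 TPM at 12 h. ZNF879 had 2.22 to 3.28, 2.10 to 3.27 and 3.92 to 5.22 TPM in the same order. In all 3 genes the 12 h cows lay above all other cows. Log2 fold changes at 12 h were 1.14, 1.11 and 1.06 (adjusted p = 0.00066, 0.0014 and 0.00049), and at 4 h they were -0.07, -0.38 and -0.11 (adjusted p = 0.86, 0.29 and 0.72). ZNF286A and ZNF775, by contrast, rose at both times, with log2 fold changes of 0.53 and 0.57 at 4 h and 1.09 and 1.0 at 12 h. The 4 h call of ZNF286A was lost on both TPM scales by limma (adjusted p = 0.051 and 0.053). That of ZNF775 was lost under 4 of 22 alternatives (adjusted p from 0.052 to 0.074). The 47 genes that rose at 12 h ranged from 0.32 to 1.8.

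**Figure D3:**
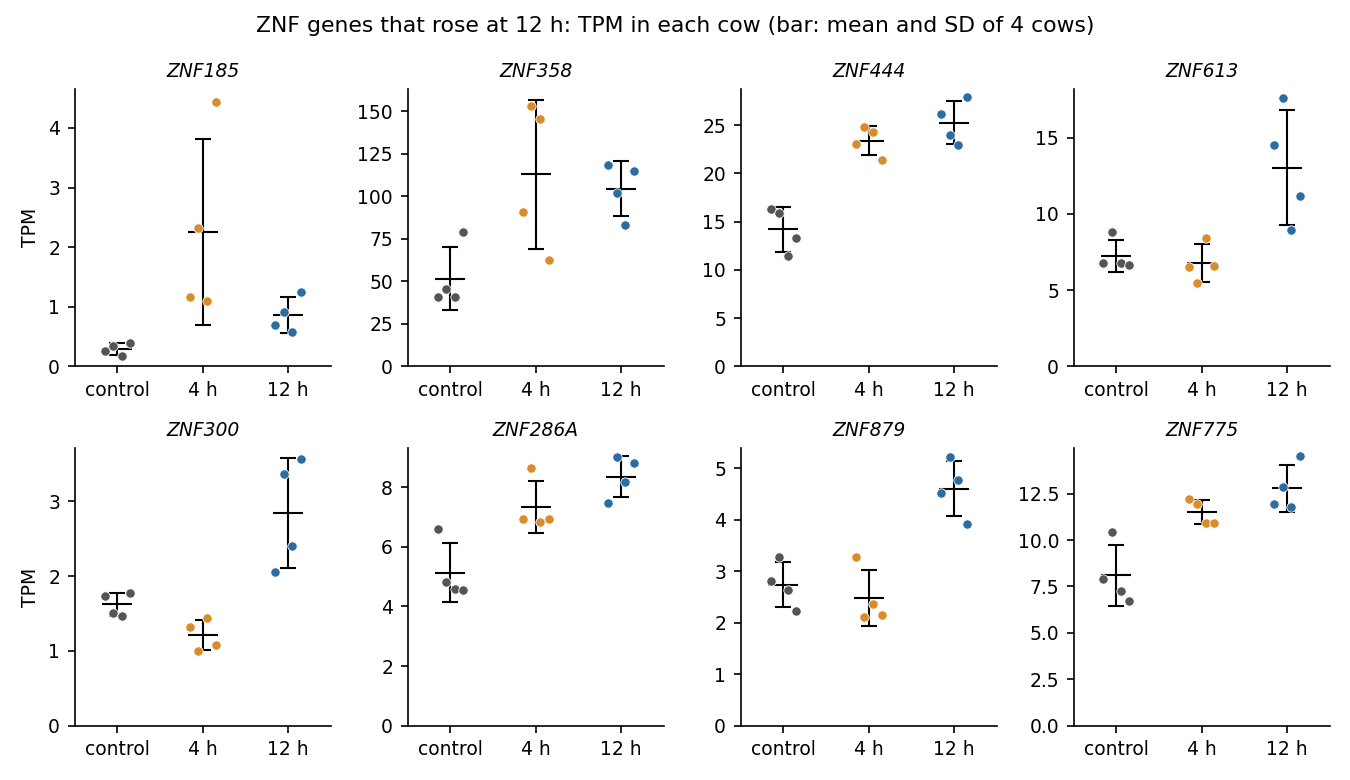
TPM (vertical axes, from 0) of the 8 ZNF genes with the largest rises at 12 h, in control, 4 h and 12 h cows. Points are cows, and bars with whiskers are the mean and SD of 4 cows. The 12 h cows lie above all control cows in every panel, and the 4 h cows do so in 4 panels: ZNF185, ZNF444, ZNF286A and ZNF775.

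At 4 h the largest rises after ZNF185 were in ZNF469 and ZNF536, and neither passed the test at 12 h against control. ZNF469, mutated in the human brittle cornea syndrome and tied to collagen synthesis, had 2.80, 1.45, 1.90 and 2.32 TPM in controls and 5.37, 10.56, 4.60 and 7.17 TPM at 4 h. At 12 h it had 1.54, 3.10, 1.53 and 2.21 TPM, within or near the control range. The 4 h cows lay apart from both other groups, with a log2 fold change of 1.75 against control (adjusted p = 0.0014, SE 0.27) and of -1.47 from 4 h to 12 h (adjusted p = 0.00091, SE 0.27). ZNF536, a brain-enriched repressor of neuronal differentiation, had 0.94 to 1.85 TPM in controls, 2.45, 5.90, 1.41 and 2.88 TPM at 4 h and 0.40 to 0.67 TPM at 12 h. Of the 4 h cows, cow6455 was within its control range. Its log2 fold change was 1.32 at 4 h (adjusted p = 0.0406, SE 0.39) and -2.18 from 4 h to 12 h (adjusted p = 0.0011, SE 0.41). ZNF462, a chromatin factor of developing tissues, was more abundant, with 12.1 to 14.4 TPM in controls and 15.1 to 28.2 TPM at 4 h. At 12 h it had 7.78 to 9.77 TPM, below all control cows, but did not pass against control. Its log2 fold change was 0.62 at 4 h (adjusted p = 0.0411) and -0.85 from 4 h to 12 h (adjusted p = 0.0024). The correction for transcript length removed both calls (adjusted p = 0.34 for the fall from 4 h to 12 h). ZNF579 also rose at 4 h, from 5.65 to 7.20 TPM to 8.72 to 11.28 TPM, and stayed at 8.61 to 11.49 TPM at 12 h (log2 fold changes 0.73 and 0.99, adjusted p = 0.0097 and 0.00032).

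The falls at 4 h were all under 2-fold. ZNF438 led them with 5.03, 4.39, 4.97 and 6.13 TPM in controls, 3.11, 2.51, 2.44 and 2.40 TPM at 4 h and 3.73, 3.37, 4.02 and 3.55 TPM at 12 h. The 3 groups did not overlap in TPM. Its log2 fold change was -0.92 at 4 h (adjusted p = 0.0022, SE 0.15) and 0.75 from 4 h to 12 h (adjusted p = 0.0019, SE 0.15), and at 12 h against control it was -0.17 (adjusted p = 0.38, SE 0.15). ZNF572 had 8.24 to 9.46 TPM in controls and 3.99 to 6.17 TPM at 4 h, and fell by 0.71 on the log2 scale (adjusted p = 0.0036). ZNF22 and ZNF568 fell by 0.65 and 0.67 (adjusted p = 0.0053 and 0.0219) and did not pass at 12 h against control. In mouse the counterpart of ZNF568 is a KRAB repressor of a placental Igf2 transcript. ZNF346, a protein that binds RNA duplexes, fell by 0.82 (adjusted p = 0.0441), with overlapping TPM. ZNF311, ZNF502 and ZNF19 fell by 0.88, 0.87 and 0.86 (adjusted p = 0.0467, 0.0166 and 0.0283), each from under 5 TPM.

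The number of calls at 4 h depended on single cows. Without 4 h cow5341, 13 members passed in place of 30, and without control cow7514 also 13. Without control cow7367, 16 passed. ZNF311, ZNF331, ZNF346, ZNF462 and ZNF536 each lost their 4 h call under at least 10 of the 22 alternative settings, and ZNF438, ZNF469, ZNF572 and ZNF22 kept theirs under all 22. ZNF185 kept its call under the 21 that could be run for it, since it did not reach the count minimum of 50.

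**Figure D4:**
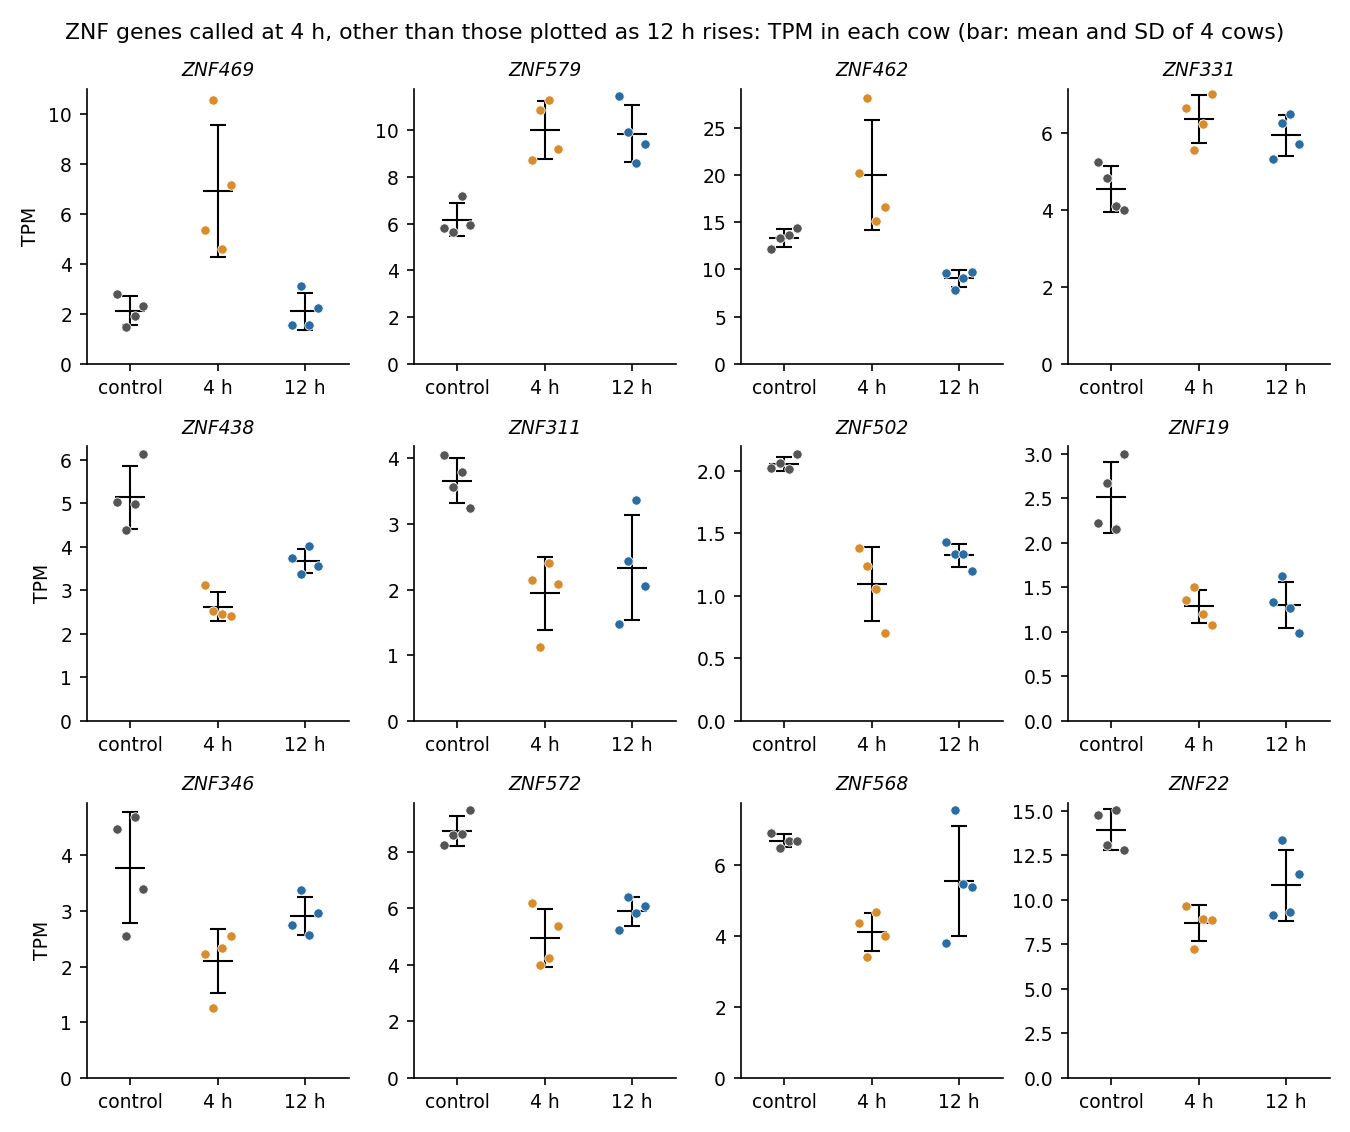
TPM (vertical axes, from 0) of 12 ZNF genes named at 4 h and not plotted among the 12 h rises, in control, 4 h and 12 h cows, with the mean and SD of 4 cows. ZNF469, ZNF579, ZNF462 and ZNF331 have every 4 h cow above the controls. The other 8 fell at 4 h, and in 7 of them every 4 h cow lies below the controls, the exception being ZNF346, where a control and a 4 h cow share 2.55 TPM.

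Between 4 h and 12 h, the rises named were ZNF300, ZNF684, ZNF385A, ZNF613 and ZNF879, by 1.49, 1.32, 1.26, 1.21 and 1.17 on the log2 scale. ZNF385A, which binds p53 and messenger RNA and takes part in platelet and neuronal RNA localisation in mouse, passed the test downward at 4 h and upward at 12 h. It had 11.54, 9.89, 7.92 and 10.28 TPM in controls, 6.73, 5.83, 8.13 and 5.49 TPM at 4 h and 12.51, 13.16, 15.62 and 10.85 TPM at 12 h. The 4 h and 12 h cows did not overlap, and each overlapped the controls in TPM at 1 cow. Its log2 fold change was -0.59 at 4 h (adjusted p = 0.0317, SE 0.16), 0.67 at 12 h (adjusted p = 0.0046, SE 0.16) and 1.26 from 4 h to 12 h (adjusted p = 0.0001, SE 0.16). Its 4 h call was lost under 8 of 22 alternatives (adjusted p up to 0.106), 7 of which left out a single cow, and its 12 h call was lost on both TPM scales (adjusted p = 0.067 and 0.070). ZNF684 had 1.5 to 2.11 TPM in controls, 0.67 to 0.92 TPM at 4 h and 1.02 to 3.10 TPM at 12 h, and neither time passed against control. The largest falls between the times, among genes with at least 1 CPM, were in ZNF750, ZNF805, ZNF609, ZNF536 and ZNF618, by 3.18, 2.34, 2.20, 2.18 and 2.05.

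Members with a described role were read in 3 lists. Of 10 members tied to RNA or the ribosome, 3 fell at 4 h, and 3 rose and 2 fell at 12 h, with a median log2 fold change of -0.00019 at 12 h. Of all tested genes 5.59% fell at 4 h, and 23.6% rose and 25.3% fell at 12 h. On log2(TPM + 1) 0 of the list rose and 4 fell at 12 h, with a median of -0.25. On that scale 10.4% of all tested genes rose and 38.9% fell at 12 h, also with a median of -0.25. The falls at 4 h were in ZNF330, ZNF346 and ZNF385A, by 0.39, 0.82 and 0.59, and the other 12 h fall was in ZNF638. ZNF622, a factor in the maturation of the large ribosomal subunit, had 21.5 to 27.1 TPM in controls, 25.8 to 29.4 TPM at 4 h and 27.2 to 35.1 TPM at 12 h and rose by 0.58 at 12 h (adjusted p = 0.00025, SE 0.09). ZNF593, another factor of ribosome assembly, rose by 0.54 (adjusted p = 0.018). ZNF106, a large RNA-binding protein, fell at 12 h from 9.96 to 11.79 TPM to 4.45 to 8.40 TPM (log2 fold change -0.54, adjusted p = 0.0149, SE 0.16), a call that the correction for transcript length removed (adjusted p = 0.45).

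Of 14 members tied to chromatin or general transcription, 1 rose and 7 fell at 12 h, where 23.6% of all tested genes rose and 25.3% fell, and the median log2 fold change of the list was -0.38. At 4 h 1 of the 14 passed, ZNF410, an activator of CHD4, which fell by 0.34 (adjusted p = 0.0222), where 5.59% of all tested genes fell. The 7 that fell at 12 h were ZNF609, ZNF652, ZNF451, ZNF217, ZNF827, ZNF592 and ZNF687, by 2.24, 1.45, 0.85, 0.66, 0.58, 0.53 and 0.32 on the log2 scale. ZNF652, which binds the CBFA2T3 corepressor, went from 4.12, 4.05, 4.97 and 5.35 TPM in controls to 0.84, 2.11, 1.63 and 0.98 TPM at 12 h. ZNF451, a SUMO ligase, went from 7.28, 6.41, 7.25 and 8.58 to 2.69, 4.37, 3.40 and 3.01 TPM. In both genes the 12 h cows lay below all other cows, and the 4 h cows overlapped the controls. ZNF592 and ZNF687 belong with ZNF532 to a complex with the reader ZMYND8, and ZNF532 did not pass at 12 h (log2 fold change -0.41, adjusted p = 0.051). The gene that rose was ZNF143, an activator bound at many promoters, by 0.55 (adjusted p = 0.0021). These are long transcripts, with a median effective length of 3766 bases. Under the correction for transcript length 2 rose and 4 fell at 12 h, with a median of -0.23, where 24.0% of all tested genes rose and 22.8% fell. On log2(TPM + 1) 0 rose and 12 fell at 12 h, where 10.4% of all tested genes rose and 38.9% fell.

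Of 20 members tied to signalling, stress or cell identity, 3 rose and 6 fell at 12 h, and 1 rose at 4 h (ZNF331, a KRAB gene that is imprinted in human). Of all tested genes 23.6% rose and 25.3% fell at 12 h and 8.65% rose at 4 h. On log2(TPM + 1) 2 of the list rose and 9 fell at 12 h, where 10.4% of all tested genes rose and 38.9% fell. Besides ZNF750 and ZNF24, the falls were in ZNF148, ZNF281, ZNF366 and ZNF335. ZNF148 and ZNF281 are related factors that bind GC-rich promoters, and they fell by 0.94 and 0.66 at 12 h (adjusted p = 0.00043 and 0.0026). ZNF148 had 12.84, 13.27, 14.58 and 14.85 TPM in controls, 16.32, 13.79, 8.41 and 13.69 TPM at 4 h and 4.87, 7.27, 6.09 and 5.32 TPM at 12 h. The 12 h cows lay below all others, and the 4 h cows spread around the controls. The rises were in ZNF331 (0.70, adjusted p = 0.002), ZNF384 (0.39, adjusted p = 0.005) and ZNF521 (0.82, adjusted p = 0.00087), the last a partner of EBF1 and a marker of progenitor cells. ZNF683, known as Hobit in resident lymphocytes, averaged 1.04 TPM in controls, 0.49 TPM at 4 h and 0.57 TPM at 12 h and did not pass, with overlapping groups. Of the 7 T and NK cell markers 1 rose at 12 h, NKG7, and 0 fell, with a median log2 fold change of -0.40.

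The partner genes through which KRAB zinc finger proteins silence chromatin did not move together on scaled counts. Of 18 listed, 1 rose and 1 fell at 4 h, where 8.65% of all tested genes rose and 5.59% fell. At 12 h 4 rose and 5 fell, with a median log2 fold change of -0.08, where 23.6% of all tested genes rose and 25.3% fell. On log2(TPM + 1) 2 rose and 10 fell at 12 h, with a median of -0.38. On that scale 10.4% of all tested genes rose and 38.9% fell at 12 h, with a median of -0.25. TRIM28, the KRAB corepressor, had a log2 fold change of 0.05 at 4 h (adjusted p = 0.81) and rose by 0.38 at 12 h on the log2 scale of scaled counts (adjusted p = 0.0127, SE 0.11), where its mean TPM was 104 in controls and 109 at 12 h. SETDB1 did not pass (0.18 at 12 h, adjusted p = 0.073), and ATF7IP, the cofactor that stabilises it, fell by 0.95 (adjusted p = 0.00055). CBX5, a heterochromatin protein, fell by 1.07 (adjusted p = 0.00029) and the deacetylase HDAC1 by 0.88 (adjusted p = 3.2e-05), while HDAC2 rose by 0.75 (adjusted p = 9.5e-06). At 4 h CHD4, a remodeller of the NuRD complex, rose by 0.46 (adjusted p = 0.0071) and HDAC1 fell by 0.45 (adjusted p = 0.0104). The other calls at 12 h were rises of MORC2 and of a row named CBX3, by 0.28 and 0.76, and falls of CHD3 and DNMT1, by 0.88 and 0.69.

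The ZNF genes lie in clusters, above all on chromosome 18, which held 77 of the 257 members. Chromosomes 25, 7 and 17 held 23, 20 and 12. Of the members on chromosome 18, 13 rose and 12 fell at 12 h, with a median log2 fold change of 0.04. The other 643 tested genes of the chromosome had a median of 0.19 with 188 rises and 112 falls. These other genes were more abundant, at a median of 20.1 CPM against 6.90 CPM in the members. Rows no more than 100000 bases apart formed 20 runs of at least 3 ZNF genes with 103 rows, 101 of them tested. In these runs 16 rose and 19 fell at 12 h, with a median of 0.01, and among the 122 tested members that stood single 25 rose and 40 fell, with a median of -0.17. Of all tested genes 23.6% rose and 25.3% fell. The single members were the more abundant, with a median of 8.76 TPM in controls against 4.94 TPM in the runs, and the longer, with a median effective length of 2394 against 2041 bases.

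Within the runs, neighbours differed. The 3 largest, each of 9 rows on chromosome 18, held 2 rises and 3 falls at 12 h among their 27 members, where 23.6% of all tested genes rose and 25.3% fell. In the run from 61899299 to 62031537 of chromosome 18, which holds ZNF581, ZNF580, ZNF524, ZNF784, ZNF579 and ZNF628, 4 of 6 rose at 12 h, 0 fell, and the median log2 fold change was 0.56. ZNF579 and ZNF524 overlap in this run, so part of their reads may belong to either. In the run from 38439706 to 38516366 of chromosome 25, with ZNF853, ZNF316 and ZNF12, 2 of 3 fell and the median was -1.16. ZNF613 rose by 1.14 beside ZNF432 and ZNF614, which fell by 0.43 and 0.64 in the same run of 4 rows on chromosome 18. These runs were chosen after their values were seen.

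The scale bore on the directions at 12 h. On log2(TPM + 1), tested by limma, 18 ZNF genes rose (7.0%) and 107 fell (41.6%) at 12 h, where 10.4% of all genes rose and 38.9% fell, and the median log2 difference was -0.27 in ZNF genes and -0.25 in all genes, which is the shift between the scales. At 4 h 7 rose and 12 fell on this scale, where 6.41% and 4.88% of all genes did, and between the times 16 rose and 91 fell, where 9.0% and 35.9% did. Summed over all members, ZNF transcripts made up 2415 ± 124 TPM in controls, 2488 ± 90.8 TPM at 4 h and 2069 ± 211 TPM at 12 h (SD, n = 4 each). Cow6314, at 2379 TPM, was the only 12 h cow within the control range. As TMM-scaled counts the sums were 3508 ± 72.8, 3749 ± 159 and 3504 ± 70.2 CPM, which placed 12 h level with the controls.

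Transcript length moved with the changes. When the members were split into 3 groups of near-equal number by effective length, the median log2 fold change at 12 h was 0.02 in the shortest (18 rose, 18 fell), -0.07 in the middle group (16 rose, 21 fell) and -0.16 in the longest (13 rose, 27 fell). Other genes of the same lengths had medians of 0.17, 0.02 and -0.15. The long ZNF genes thus sat level with other long genes, and the short ones below other short genes. These other genes shared the length bounds only and were not matched on abundance. In the set of like length and abundance the median at 12 h was -0.03, against -0.04 in all ZNF genes. With an offset that removed each library's trend with effective length, 11 rose and 21 fell at 4 h, where 7.65% and 8.34% of all genes did. At 12 h 50 rose and 59 fell, where 24.0% and 22.8% did, and between the times 62 rose and 51 fell, where 25.6% and 19.8% did. Of the 15 ZNF genes named as largest rises or falls at 12 h outside ZNF185, every one kept its call on log2(TPM + 1) and under the length offset. ZNF185 lost its 12 h call on log2(TPM + 1) (adjusted p = 0.11), as did ZNF622, ZNF593, ZNF385A, ZNF143 and ZNF384 of the role lists (adjusted p = 0.057, 0.21, 0.067, 0.18 and 0.88).

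**Figure D5:**
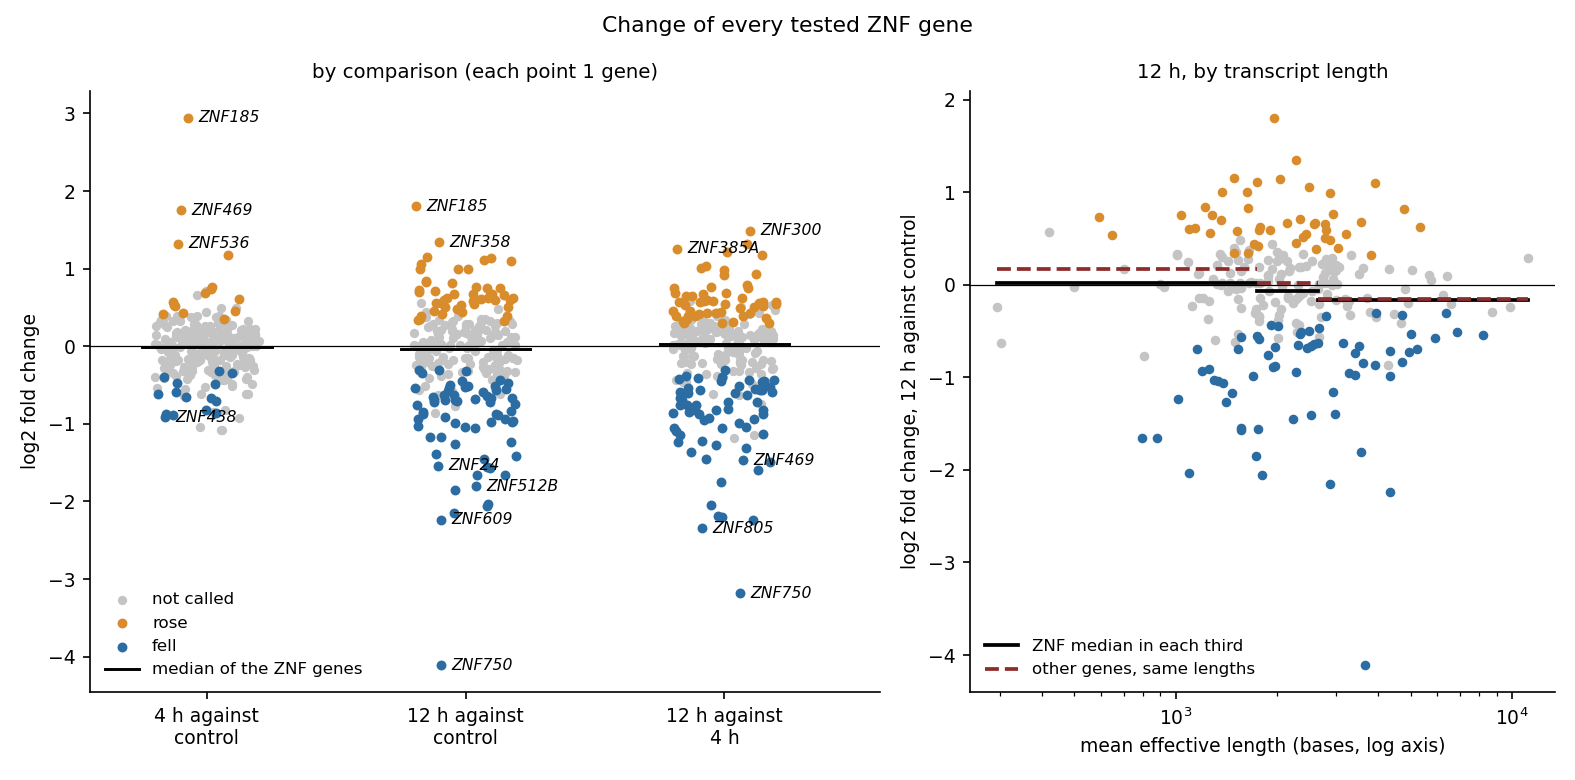
Left, log2 fold change of each of the 257 ZNF genes in the 3 comparisons, coloured by whether it passed the test, with the median as a bar near 0 in each. Right, log2 fold change at 12 h against mean effective length (log axis), with the ZNF median (solid) and the median of other genes (dashed) in each of 3 length groups. The solid line steps from 0.02 to -0.07 and -0.16, and the dashed line from 0.17 to 0.02 and -0.15.

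Reads shared between similar genes touched a minority of the family. Expected counts were whole in all 12 libraries for 83.7% of the ZNF genes and 70.4% of the other tested genes, which leaves 42 members whose reads RSEM divided with another row. Over the 215 members with whole counts alone, 10 rose and 15 fell at 4 h, and 35 rose and 56 fell at 12 h, where 8.65% and 5.59% of all tested genes did at 4 h and 23.6% and 25.3% at 12 h. The symbols with 2 rows each were ZNF383, ZNF268 and ZNF75D. The 16 rows under the minimum were ZNF597, ZNF514, ZNF215, ZNF391, ZNF831, ZNF483, ZNF541, ZNF804A, ZNF157, ZNF891, ZNF280A, ZNF385C, ZNF648, ZNF804B, ZNF114 and ZNF385D, of which ZNF648 had 0 counts in all 12 libraries and none of the others passed 0.73 TPM in any. They were not tested.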

How the data were processed

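Total RNA of 12 corpora lutea (4 control, 4 at 4 h and 4 at 12 h) was sequenced, 1 library per cow. The authors deposited 1 table per cow with expected counts, TPM and effective length per gene. The submitters' processing notes name STAR 2.5, RSEM 1.3 and the ARS-UCD 1.2 build, while the annotation version and strand setting are not given in the sources used here. TPM, as deposited by the authors, is scaled to the same sum in each library. FPKM columns were not used.

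Expected counts were rounded, genes reaching 10 counts in 4 or more of the 12 libraries were kept, and counts were scaled by TMM. The 3 groups were fitted together with the quasi-likelihood test of edgeR 4.0.16 in R 4.3.3, p values were adjusted over 14481 genes by the Benjamini-Hochberg method, and an adjusted p under 0.05 was a call. SE is the log2 fold change divided by the square root of F. Tables were joined with Python 3.11.15 and pandas 2.3.3. The scripts were tested on simulated data. Libraries of 10263310 to 22600213 counts gave a median ZNF gene 156.5 counts, so precision is lowest for members with few counts.

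Alternatives were DESeq2 1.42.0, RLE scaling, no count minimum or one of 50, only the 2 groups compared, limma 3.58.1 on log2(TPM + 1) and log2(TPM + 0.1), no mitochondrial genes, an offset for the trend with effective length (spline with 5 df), leaving out cow6455 and cow6314, leaving out each cow, and only members with whole expected counts (within 0.01).

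Named genes were the 8 members with the largest rise and the 8 with the largest fall against control at each time, and 5 of each at 12 h against 4 h, among calls whose groups did not overlap in CPM and with at least 1 CPM in the higher group, plus the 6 most abundant members, up to 3 of each role list, and partner genes that passed. Others named were chosen after their values were seen. Members, lists and tests were chosen with earlier results of these data known. Of the members, 250 matched a RefSeq symbol (ARS-UCD2.0, names only), and protein domains and sequences were not analysed here. Nothing in the labels ties cows across groups, and cows are separate animals.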

Additional observations from a re-analysis of the deposited data

Results flagged for a closer look

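In 126 groups of 4 cows, over 42 named genes, a test for a single value apart from the rest set 7 apart in TPM, and chance alone sets apart about 1 in 20 groups. In controls these were cow4285 for ZNF106 (11.79 TPM, others 9.96 to 10.27) and for ZNF286A (6.6 TPM, others 4.54 to 4.81), cow7514 for ZNF358 (79.11 TPM, others 40.75 to 45.24) and cow6464 for ZNF613 (8.8 TPM, others 6.62 to 6.77). At 4 h they were cow5341 for ZNF286A (8.63 TPM, others 6.84 to 6.94), cow6455 for ZNF365 (1.27 TPM, others 3.34 to 3.49) and cow4291 for ZNF438 (3.11 TPM, others 2.4 to 2.51).

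For 117 of 257 members the direct edgeR test of 12 h against 4 h passed, so that their effects at the times differed (45.5%, beside 46.7% of all tested genes), of which 52 were higher and 65 lower at 12 h.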

How the results depend on the processing

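Leaving out each cow in turn gave 13 to 30 called ZNF genes at 4 h, 100 to 117 at 12 h and 97 to 127 between the times, against 30, 113 and 117 with all cows. At 4 h the count was 18 when only the compared groups were fitted, 19 on log2(TPM + 1) by limma, and 18 by limma with 0.1 added in place of 1. The other alternatives gave counts within 1.5 times of these, and DESeq2 gave 41, 117 and 120. For named genes, calls stayed on their side of the threshold in 1609 cases over all alternatives and were lost in 187. The direction turned for ZNF638 under the length offset, to 0.035 at 12 h against control and 0.0047 at 12 h against 4 h. The cause was not tested. No paired analysis was possible because each cow belongs to 1 group and the groups share no cow numbers. Depth limits members with few counts, such as ZNF185 in controls and ZNF750 at 12 h.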

Other observations

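Other zinc finger families by name were counted in the same fit as a description. Of 40 tested ZBTB genes, which pair zinc fingers with a BTB domain, 5 rose and 19 fell at 12 h with a median log2 fold change of -0.32, and with the length offset 6 rose and 17 fell. Of 6 ZKSCAN genes 1 rose and 3 fell (median -0.85). Of 16 ZFP genes 6 rose and 3 fell (median 0.23), of 10 ZSCAN genes 2 rose and 2 fell (median 0.25), and of 19 ZC3H genes, whose CCCH fingers bind RNA, 5 rose and 7 fell (median -0.01). At 12 h 23.6% of all tested genes rose and 25.3% fell. On log2(TPM + 1) the counts at 12 h were 0 that rose and 24 that fell for ZBTB, 0 and 4 for ZKSCAN, 2 and 4 for ZFP (median -0.05), 1 and 2 for ZSCAN (median -0.05) and 0 and 9 for ZC3H, where 10.4% of all tested genes rose and 38.9% fell.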
